A study of Mus musculus with 1920 samples.

Results

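The Fc receptors described here are the products of 5 genes: the IgG receptors Fcgr1, Fcgr2b, Fcgr3 and Fcgr4, and Fcer1g, the common γ chain of the activating receptors. They were taken from the deposited counts by the Ensembl identifiers of these symbols and make up 5 of 48709 gene entries. All 5 were found, with positions on mouse build GRCm38 that are the same in the deposited table and in GENCODE vM21. On chromosome 1 lie 4 of them, in the order Fcgr2b (ENSMUSG00000026656, chr1:170958617-170976547, minus strand), Fcgr4 (ENSMUSG00000059089, chr1:171018920-171029761, plus strand), Fcgr3 (ENSMUSG00000059498, chr1:171051174-171064935, minus strand) and Fcer1g (ENSMUSG00000058715, chr1:171229572-171234365, minus strand). Fcgr1 (ENSMUSG00000015947, chr3:96282909-96293969, minus strand) lies on another chromosome. All are protein-coding.

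Fc receptors are how phagocytes recognise antibody. The activating IgG receptors Fcgr1 (high affinity), Fcgr3 and Fcgr4 have no signalling motif of their own in the mouse and pass the signal through the γ chain Fcer1g, whose ITAM motif is phosphorylated by Src-family kinases and then recruits Syk, which leads to actin remodelling and uptake. Fcgr2b, the only inhibitory one, carries an ITIM motif that recruits the phosphatase SHIP1 and dampens the same signal. Fcer1g also pairs with other activating receptors, so its level is not that of the IgG receptors alone.

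The cells were single microglia of CD1 mice aged 16 weeks, stained with antibodies to 5 surface proteins (CD206, Ly6G, Ly6C, CD45 and CD11b), sorted 1 per well and turned into Smart-seq2 libraries, which count full-length cDNA reads without molecular identifiers. Untreated mice gave 6 groups, from spinal cord, corpus callosum, cortex, facial nucleus, hippocampus and cerebellum, and per the series' design text these regions came from the same mice. Injured mice gave 4 groups: facial nucleus at day 3 and day 14 after facial nerve axotomy (labelled facial nerve as tissue and facial nucleus as source), and corpus callosum at the cuprizone demyelination and remyelination stages. Each group had 4 replicates and 129 to 181 kept cells. The sources used here do not give sex, the dose and duration of cuprizone, the sort gates or whether Fc receptors were blocked before staining. Each plate held 2 groups, so each injured group is compared with an untreated region from another plate, and plate and injury cannot be told apart in it.

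The counts of all kept cells of 1 mouse in 1 group were added, which gave 40 sums of 5298853 to 19964472 counts. Remyelination stood apart in quality: 67.9% of its wells passed the filters and its cells had a median of 1517 detected genes, against 81.1% to 95.3% of wells and 2137 to 2958 genes elsewhere. All 12 microglia markers were read in at least 25% of cells in every group, but their levels moved in both directions. P2ry12 was at 6706 CPM in untreated corpus callosum, 2027 in demyelination and 1756 in remyelination, and Tmem119 at 3692, 496 and 551. Fcrls, another of the 12, was at 729 ± 531, 3547 ± 1280 and 2460 ± 2152 CPM in the same order. The 12 markers summed to means of 51035, 40402 and 33777 CPM. Levels are given as CPM, counts relative to library size, scaled with TMM over all 40 sums, with the SD over 4 mice.

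Fcgr2b and Fcgr3 have closely similar extracellular parts, which bears on how their reads could be assigned. Of the 1733 different stretches of 50 bases in GENCODE transcripts of Fcgr3, 166 (9.58%) also occur in Fcgr2b, which is 2.92% of the 5685 stretches of Fcgr2b. No other pair of the 5 genes shared any. The longest run common to the transcripts Fcgr2b-201 and Fcgr3-201 is 129 bases of coding sequence, the same in both, and is shown because reads from it cannot be assigned to 1 gene. It is spread over 2 exons within chr1:170966674-170968081 for Fcgr2b and within chr1:171054167-171057792 for Fcgr3, both on the minus strand of GRCm38.
Fcgr2b and Fcgr3, shared coding run: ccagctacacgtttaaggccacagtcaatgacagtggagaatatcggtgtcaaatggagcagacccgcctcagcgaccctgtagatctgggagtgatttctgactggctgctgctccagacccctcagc
The sources used here do not say how the authors counted reads that fit both genes, so a small part of either count is uncertain. Exons of Fcgr2b also overlap the antisense gene Gm38204, and Smart-seq2 does not mark strand.

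The stretches upstream of Fcgr1 and Fcer1g are shown because these 2 members differed between injuries. The windows are 250 bases before the RefSeq start (table build GRCm38.p6), shown 5′ to 3′ on the strand of the gene and ended at the first annotated GENCODE base. The search covered 3 motifs of myeloid and interferon-induced genes on both strands, with overlaps allowed: GAGGAA, the core bound by PU.1, TTCNNNGAA, bound by STAT factors, and the interferon regulatory factor motif, a pair of GAAA with NN between them. Capitals mark matches, and TTCCTC is GAGGAA read on the other strand.
Fcgr1, chr3:96293970-96294219, minus strand: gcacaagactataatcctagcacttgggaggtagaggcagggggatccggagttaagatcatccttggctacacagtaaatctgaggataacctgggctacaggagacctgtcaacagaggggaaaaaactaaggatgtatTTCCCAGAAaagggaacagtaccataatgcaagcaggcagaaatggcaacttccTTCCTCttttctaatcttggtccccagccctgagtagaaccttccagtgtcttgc
Fcer1g, chr1:171234366-171234599, minus strand: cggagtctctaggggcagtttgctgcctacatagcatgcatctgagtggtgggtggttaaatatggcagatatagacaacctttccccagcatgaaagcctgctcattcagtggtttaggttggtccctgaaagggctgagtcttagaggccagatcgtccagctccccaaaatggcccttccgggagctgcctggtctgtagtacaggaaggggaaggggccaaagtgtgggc
Fcgr1 held 1 match to the STAT motif and 1 to the PU.1 motif, beginning 109 and 55 bases before the start. Among all 32851 windows of this length, 7.02% held the STAT motif, 23.3% the PU.1 motif and 2.98% the interferon regulatory factor motif. The windows of Fcgr4 and Fcgr3 each held 1 PU.1 match, that of Fcgr4 also 1 interferon regulatory factor match, and those of Fcer1g and Fcgr2b held none of these letters. The windows of Fcgr3 and Fcgr2b lie wholly inside their own annotated GENCODE genes, so they are not upstream of the annotated gene. A match describes the letters only and was not tested as a binding site.

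In untreated tissue, Fcer1g and Fcgr3 were the most abundant members per length in every region, Fcgr1 was intermediate, and Fcgr2b and Fcgr4 were low. Per kilobase of exon, on the CPM scale, cortex had 1649.8 ± 109.8 for Fcer1g, 1089.8 ± 184 for Fcgr3 and 444 ± 99.0 for Fcgr1. The same quantity in cortex was 43.8 ± 15.5 for Fcgr2b and 16.6 ± 5.86 for Fcgr4. The gene model of Fcgr2b is long (5790 bases of exon, against 874 for Fcer1g and 1256 to 2589 for the others), and levels per kilobase use the whole model. As a share of the summed level per kilobase of the 4 IgG receptors, Fcgr3 made up between 60.7% ± 7.46 in facial nucleus and 73.0% ± 1.64 in cerebellum (SD, n = 4). Fcgr1 made up between 22.9% ± 1.98 in cerebellum and 34.7% ± 7.58 in facial nucleus. The inhibitory receptor Fcgr2b made up 2.07% ± 0.640 in corpus callosum, its lowest regional share, and 2.81% ± 1.55 in cerebellum, its highest.

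**Figure D1:**
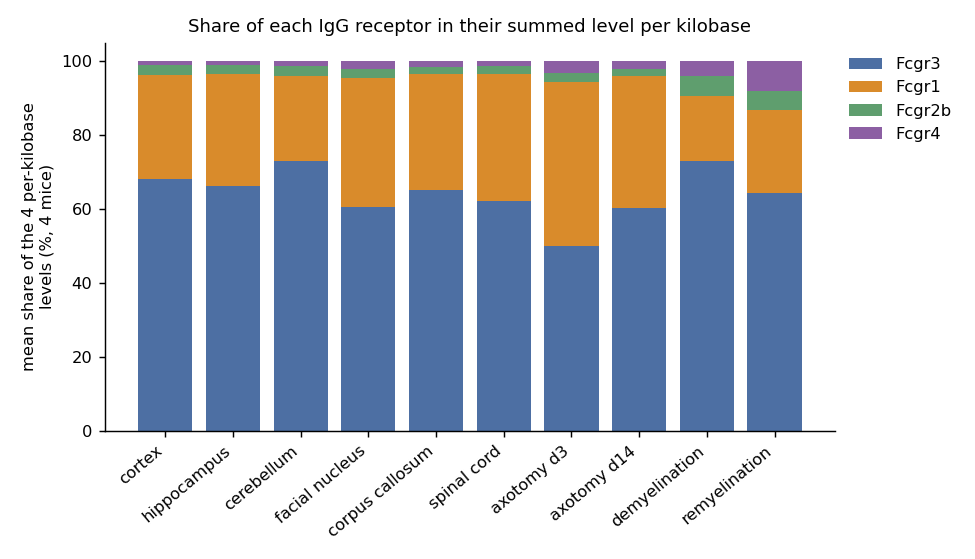
Stacked bars give the mean share (%, 4 mice) of each IgG receptor in the summed level per kilobase of the 4, in 10 groups. Fcgr3 holds the largest share in every group, Fcgr1 reaches 44.5% at day 3 after axotomy, and Fcgr2b reaches 5.46% in demyelination.

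No member passed the edgeR quasi-likelihood test of any difference among the 6 untreated regions (adjusted p 0.05 or less over 22907 genes), where 0.1% of all genes did. At an unadjusted p under 0.05, where 10.3% of all genes lay, there were 2 members, Fcer1g (p = 2.09e-04, adjusted p = 0.125) and Fcgr3 (p = 0.0199, adjusted p = 0.411), and DESeq2, which called 0.891% of all genes, called 1 member, Fcer1g (adjusted p = 0.00116). With the replicate block for the shared mice, edgeR called 39 genes in place of 23, still none of them a member.

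Fcer1g, the γ chain, ran from cerebellum to hippocampus and cortex. The 4 mice stood at 869.8, 962, 829 and 948 CPM in cerebellum, at 1578, 1425, 1353 and 1412 CPM in cortex and at 1284, 1611, 1268 and 1609 CPM in hippocampus. Every cerebellum value lay below every cortex and hippocampus value, while cortex and hippocampus overlapped. Facial nucleus (889 to 1177 CPM), corpus callosum (822 to 1279 CPM) and spinal cord (1006 to 1144 CPM) overlapped one another. Cortex and hippocampus were on 1 plate and cerebellum on another, so region and plate cannot be told apart in that order.

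Within plates, cortex against hippocampus called 0 members (background 0%), cerebellum against facial nucleus 0 (background 0.00437%) and spinal cord against corpus callosum 0 (background 0%), by edgeR. DESeq2 also called 0 members in each, where it called 3.35%, 3.44% and 1.62% of all genes. At an unadjusted p under 0.05 by edgeR these comparisons held 1, 1 and 0 members, beside 10.3%, 11.3% and 6.57% of all genes. The first was Fcgr3, higher in cortex (1600.4 to 2185 CPM) than in hippocampus (1285 to 1452 CPM) without overlap, with a log2 fold change of 0.42 ± 0.16 (SE, adjusted p = 0.478 by edgeR). The second was Fcgr1, at 761 ± 89.4 CPM in cerebellum and 1090.2 ± 269 CPM in facial nucleus (log2 fold change -0.55 ± 0.25, adjusted p = 0.423 by edgeR). The replicate block left all 3 counts of members at 0 and moved the genes called between cerebellum and facial nucleus from 1 to 2.

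The activating receptors spanned narrow ranges. Fcgr3 means ran from 1279.9 ± 216 CPM in facial nucleus, 1304 ± 251 in spinal cord, 1381 ± 71.1 in hippocampus, 1468 ± 307 in corpus callosum and 1621 ± 92.8 in cerebellum to 1892 ± 319 in cortex. Fcgr1 means ran from 761 ± 89.4 CPM in cerebellum, 975 ± 386 in hippocampus, 1029.8 ± 247 in corpus callosum, 1090.2 ± 269 in facial nucleus and 1096 ± 305 in spinal cord to 1150.1 ± 256 in cortex. Fcgr4 means lay between 16.7 ± 23.5 CPM in hippocampus and 31.2 ± 18.3 CPM in facial nucleus, with SDs above the means in hippocampus and corpus callosum. In the order of all 10 groups, neighbours overlapped for every member except at 2 places. Fcer1g was higher in remyelination than in hippocampus, and Fcgr1 higher at day 3 after axotomy than in cortex, with no overlap of mice. How many of all genes show such gaps was not counted, so they describe the mice only.

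Fcgr2b, the inhibitory receptor, spread widely between replicates within each region. Replicate 4 was the highest in 6 of 6 regions. It stood at 375 CPM in cortex, 186 in hippocampus, 383 in cerebellum, 286 in facial nucleus, 248 in corpus callosum and 298 in spinal cord. The other replicates ranged from 83.4 CPM (replicate 1, spinal cord) to 255 CPM (replicate 2, cortex). Fcgr1 was highest in replicate 3 in 5 of 6 regions and lowest in replicate 4 in 4 of 6. For Fcgr3, replicate 1 was the lowest in 4 of 6 regions and replicate 4 the highest in 4 of 6. Regions share mice per the design text, so these orders are repeated looks at few animals and were not tested.

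**Figure D2:**
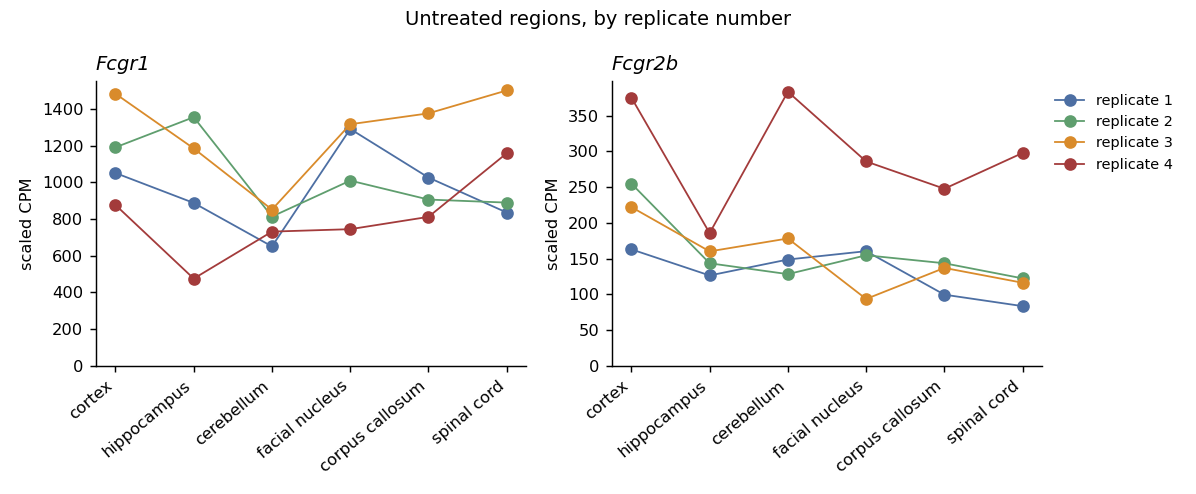
Lines join the scaled CPM of 1 replicate number over the 6 untreated regions, for Fcgr1 (left) and Fcgr2b (right), with each y axis starting at 0. Replicate 4 is the highest for Fcgr2b in all 6 regions, and replicate 3 is the highest for Fcgr1 in 5 of 6.

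Cuprizone kills oligodendrocytes and strips myelin from the corpus callosum, and the comparison asks how microglia there differ from those of the untreated region. In demyelination the γ chain Fcer1g and the inhibitory receptor Fcgr2b rose, by 3.40-fold and 3.22-fold, while no activating IgG receptor passed the test. So 2 of 5 members were called higher and 0 lower by edgeR, where 3.08% of 14057 genes were called higher and 2.08% lower. That is 433 genes higher and 292 lower, a split that DESeq2 turned to 651 and 1294 (13.8% of all genes in all), with the same 2 members called higher.

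Fcer1g in untreated corpus callosum stood at 1279, 972, 978 and 822 CPM, and in demyelination at 4082, 3209, 3308 and 3928 CPM. The lowest demyelination mouse was far above the highest untreated one. The log2 fold change was 1.76 ± 0.20 (SE, n = 4 against 4, adjusted p = 3.66e-05 by edgeR), and the median of all genes tested was -0.33. Fcgr2b went from 99.4, 143, 137 and 248 CPM to 444, 684, 514 and 503 CPM. These groups did not overlap either, although untreated replicate 4 came closest. Its log2 fold change was 1.69 ± 0.37 (adjusted p = 0.0132 by edgeR). Without corpus callosum replicate 2 the adjusted p of Fcgr2b was 0.0522, which ends the call, at a log2 fold change of 1.67.

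The activating IgG receptors took different positions. Fcgr3 stood at 1110.5, 1334, 1623 and 1805 CPM in untreated corpus callosum and at 1813, 2043, 2818 and 2131 CPM in demyelination. The groups just failed to overlap, and the log2 fold change of 0.50 ± 0.21 did not pass (adjusted p = 0.159 by edgeR). Fcgr1, the high-affinity receptor, was at 1026, 906, 1376 and 812 CPM untreated and at 979.8, 649, 742 and 715 CPM in demyelination. Here the groups overlapped, with a log2 fold change of -0.49 ± 0.25 (adjusted p = 0.282 by edgeR). Fcgr4 was at 19.5, 13.3, 0.180 and 67.7 CPM untreated and 109, 26.1, 80.6 and 125 CPM in demyelination, overlapping widely (log2 fold change 1.65 ± 1.11, adjusted p = 0.471 by edgeR).

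These levels depend on the scaling, since TMM factors were 0.67 to 0.74 in demyelination and 0.65 to 0.74 in remyelination, against 1.02 to 1.17 in untreated corpus callosum. Without them Fcer1g was at 1121 ± 194 CPM untreated and 2508 ± 357 CPM in demyelination, and Fcgr2b at 176 ± 79.7 and 369.9 ± 72.0 CPM, still without overlap. Unscaled Fcgr1 stood at 1131 ± 193 CPM (951 to 1403) and 531 ± 90.6 CPM (444 to 657), where the groups no longer overlapped. Unscaled Fcgr3 turned its direction, with 1633 ± 374 CPM untreated and 1516 ± 283 CPM in demyelination, and overlapped. With DESeq2, which scales by its own size factors, the log2 fold change of Fcgr1 was -0.74 (adjusted p = 0.0761).

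The make-up of the set, which the scaling does not touch, differed between the groups. Per kilobase, Fcgr1 made up 31.2% ± 7 of the 4 IgG receptors in untreated corpus callosum and 17.5% ± 4.36 in demyelination, and Fcgr2b 2.07% ± 0.640 and 5.46% ± 1.43. The ratio of Fcer1g to the summed activating receptors Fcgr1, Fcgr3 and Fcgr4, all per kilobase, was 0.952 ± 0.322 (0.669 to 1.39) untreated and 2.59 ± 0.501 (1.92 to 3.09) in demyelination, without overlap. These shares and ratios were described and not tested.

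At the remyelination stage, when myelin is being restored, 1 of 5 members was called higher against untreated corpus callosum and 0 lower by edgeR, where 2.51% of all genes were called higher and 0.605% lower (353 and 85 genes, and 641 and 948, or 11.3% in all, by DESeq2). The median of all genes was -0.31. The called member was Fcer1g, at 4132, 2604, 4093 and 2702 CPM, a 3.31-fold rise (log2 fold change 1.73 ± 0.20, adjusted p = 5.86e-05 by edgeR). All 4 mice were above every untreated mouse, and 2 of them were near the highest demyelination value while the other 2 were below all demyelination values. Fcgr2b stood at 576, 196, 449.7 and 412 CPM, with replicate 2 inside the untreated range and the others above it. Its log2 fold change of 1.36 ± 0.36 missed the threshold (adjusted p = 0.0524 by edgeR). It passed without remyelination replicate 2 (adjusted p = 0.0135), without corpus callosum replicate 4 (0.0283), in 1 fit of all 10 groups (0.0395) and with DESeq2 (0.042).

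Fcgr3 was at 1546 ± 283 CPM in remyelination (log2 fold change 0.06 ± 0.21, adjusted p = 0.933 by edgeR), a direction that turned under upper-quartile scaling (-0.10) and with DESeq2 (-0.12). Fcgr1 was at 802 ± 239 CPM, with a log2 fold change of -0.37 ± 0.25 (adjusted p = 0.483). Fcgr4 stood at 20.1, 378, 149.7 and 34.3 CPM. Replicate 2 decided its mean, and its log2 fold change of 2.49 ± 1.14 did not pass (adjusted p = 0.248 by edgeR). Between remyelination and demyelination, which shared a plate, edgeR called 0 members (background 0.0427%) and DESeq2 0 (background 4.24%), with 1 at an unadjusted p under 0.05 by edgeR (all genes 14.1%). That was Fcgr3, with a log2 fold change of -0.45 ± 0.21 (adjusted p = 0.34).

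**Figure D3:**
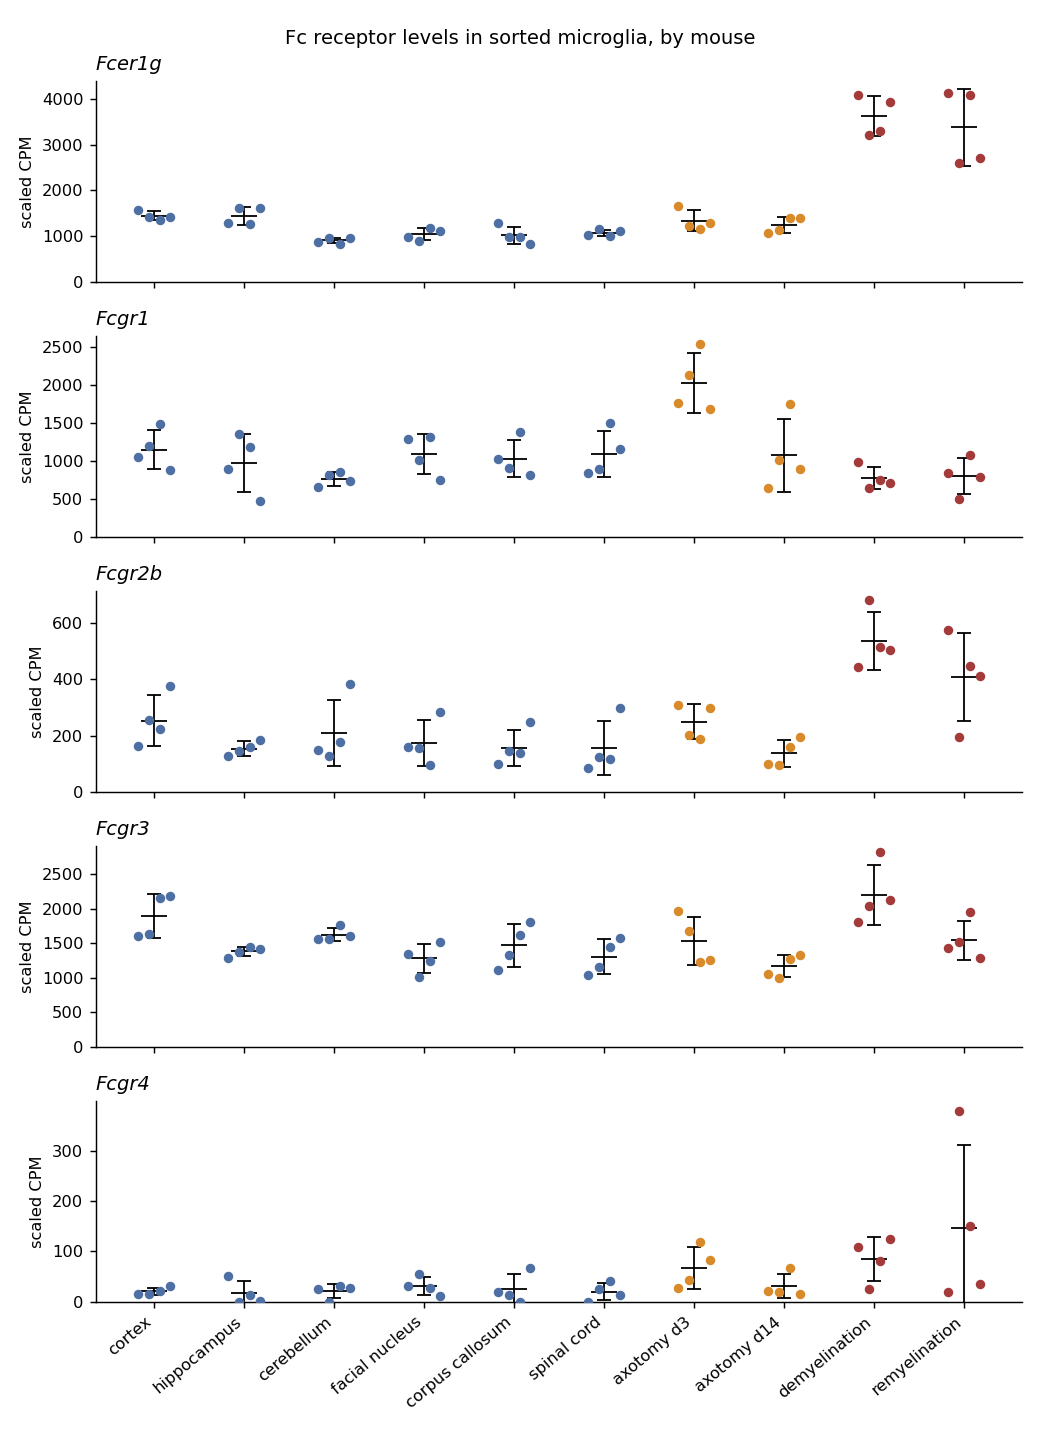
Points are the scaled CPM of single mice (4 in each of 10 groups), with the mean and SD in black and each y axis starting at 0, so that SD bars reaching below 0 are clipped. Fcer1g lies between 2604 and 4132 CPM in the 2 cuprizone groups, above all other mice, and Fcgr1 between 1681 and 2545 CPM at day 3 after axotomy.

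Cutting the facial nerve injures motor neurons whose cell bodies stay in the facial nucleus, with no direct wound to the brain. At day 3, no member passed the edgeR test against untreated facial nucleus, where 0.14% of 19319 genes were called higher. DESeq2 called 0 members and 1.8% of all genes. At an unadjusted p under 0.05 by edgeR there was 1 member, beside 8.33% of all genes. The 1 member under that p was Fcgr1. It stood at 1291, 1009, 1316 and 744 CPM in untreated facial nucleus and at 1761, 2131, 2545 and 1681 CPM at day 3. All 4 injured mice were above all 4 untreated ones. They were also above every mouse of the cortex group, which came next in the order of all 10 groups. How many of all genes do the same was not counted. The log2 fold change was 0.92 ± 0.27 (unadjusted p = 0.00325, adjusted p = 0.386 by edgeR). Without a filter on low counts the adjusted p was 0.0393, and over all alternatives run it ranged from 0.0393 to 0.544.

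The other members overlapped with untreated facial nucleus at day 3. Fcer1g was at 1331 ± 229.6 CPM against 1037 ± 131 CPM (log2 fold change 0.39 ± 0.19, adjusted p = 0.608 by edgeR). Fcgr2b was at 249 ± 63.0 CPM against 174 ± 80.7 CPM, and Fcgr3 at 1532 ± 351 CPM against 1279.9 ± 216 CPM (adjusted p = 0.853 and 0.894 by edgeR). Fcgr4 was at 67.5 ± 41.3 CPM against 31.2 ± 18.3 CPM, with a log2 fold change of 1.14 ± 0.69 (adjusted p = 0.806).

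At day 14, Fcgr1 stood at 640.5, 1013, 1755 and 893 CPM, spread over and beyond the untreated range, with only replicate 3 inside the range of day 3. Fcer1g was at 1242 ± 169 CPM, Fcgr2b at 136 ± 49.3, Fcgr3 at 1167 ± 161 and Fcgr4 at 30.9 ± 24.3. Against untreated facial nucleus edgeR called 0 members (background 0%) and DESeq2 0 (background 0.937%), with 0 at an unadjusted p under 0.05 by edgeR (all genes 5.64%). Their log2 fold changes ran from -0.32 ± 0.36 for Fcgr2b to 0.29 ± 0.19 for Fcer1g. Day 14 against day 3, on 1 plate, also gave 0 members by edgeR (background 0.0259%) and 0 by DESeq2 (background 1.21%). The 2 members under an unadjusted p of 0.05, beside 6.6% of all genes, were Fcgr1, at -0.91 ± 0.27 (adjusted p = 0.443 by edgeR), and Fcgr2b, at -0.87 ± 0.36 (adjusted p = 0.63). Without the filter on low counts Fcgr1 passed (adjusted p = 0.0436).

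Whether the 2 injuries differ in a member was tested as the difference between the demyelination effect and the day 3 effect, each against its own untreated region. By edgeR 2 of 5 members passed, where 1.03% of 19148 genes did (72 higher and 125 lower, and 252 and 1844 by DESeq2, or 10.9% in all, which called the same 2 members). The effect on Fcer1g was larger in demyelination, by 1.48 ± 0.25 on the log2 scale (adjusted p = 0.0028). For Fcgr1 the difference was -1.31 ± 0.31 (adjusted p = 0.0383 by edgeR). In the separate fits of each injury its effect was -0.49 ± 0.25 in demyelination and 0.92 ± 0.27 at day 3, and neither passed. Those fits differ in genes and scaling from the fit of this difference, so their values do not add up exactly to it. The median of all 19148 genes in the test of the difference was -0.94, so the value of Fcgr1 is close to it and that of Fcer1g is not. This median belongs to that fit and its genes. In the separate fits the medians were -0.33 in demyelination (14057 genes) and 0.04 at day 3 (19319 genes). In leave-one-out fits the adjusted p of Fcgr1 ran from 0.0276 to 0.0899, and the call was lost in 12 of 16. It was kept only without facial nucleus replicate 3, corpus callosum replicate 4, day 3 replicate 4 or demyelination replicate 1. The adjusted p was 0.0769 in 1 fit of all 10 groups. For Fcer1g the leave-one-out range was 0.00117 to 0.0099. Fcgr2b, at 1.25 ± 0.48, did not pass (adjusted p = 0.146), nor did Fcgr3 and Fcgr4. The 4 groups of this test came from 4 plates.

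**Figure D4:**
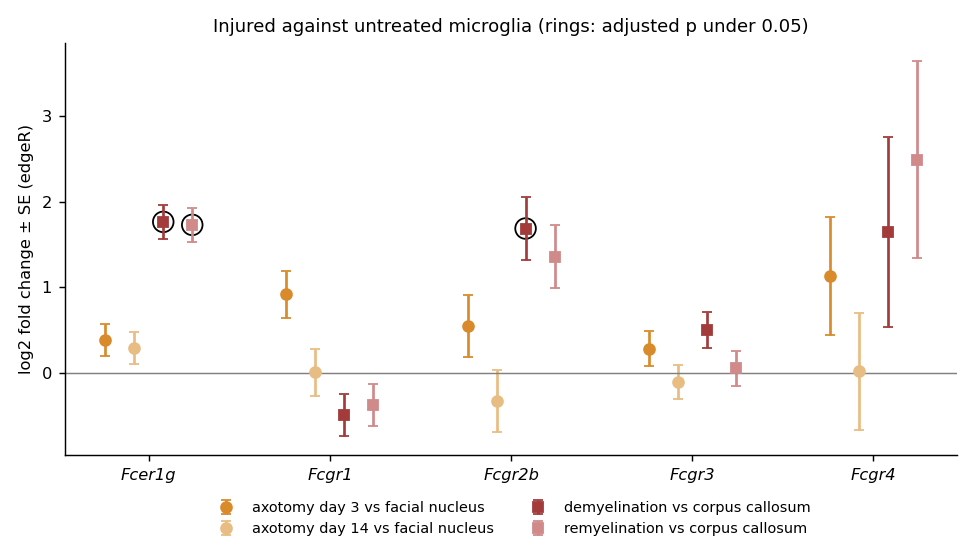
Points give the log2 fold change of each member with its SE from edgeR (4 mice against 4), for both times after axotomy against facial nucleus and for both cuprizone stages against corpus callosum, and rings mark an adjusted p under 0.05. Rings sit on Fcer1g in both cuprizone stages and on Fcgr2b in demyelination, and Fcgr1 lies above 0 at day 3 and below 0 in demyelination.

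Counts per sum do not show whether more cells carried a transcript or each cell carried more. Each kept cell was therefore thinned to 20000 gene reads, and the share of cells with at least 1 read was taken per mouse. For Fcer1g nearly every cell had a read in all groups, from 95.0% ± 4.46 in remyelination to 98.9% ± 1.24 in cortex. In cells with a read, thinned Fcer1g reads per cell averaged 22.5 ± 3.42 in untreated corpus callosum, 50.2 ± 7.5 in demyelination and 49.1 ± 12.5 in remyelination (mean ± SD over 4 mice). The median cell, unthinned, had 951 CPM untreated and 2141 CPM in demyelination. The share was near its ceiling in both, and the values that differed were the reads per cell. Thinned reads and CPM per cell carry no TMM scaling, so they compare with the unscaled levels and not with the scaled fold change.

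Fcgr1 was read in fewer cells in the cuprizone groups. The share was 83.2% ± 4.10 in untreated corpus callosum (77.8% to 87.0%), 62.5% ± 3.65 in demyelination (58.3% to 65.9%) and 49.3% ± 9.31 in remyelination (37.9% to 58.1%). Neither cuprizone group overlapped with the untreated one. Cells of these 3 groups had a median of 2926, 2137 and 1517 detected genes, which goes the same way. The part of this in the Fcgr1 shares was not tested. Without thinning the shares were 90.8%, 78.7% and 69.5%. At day 3 after axotomy the share was 84.3% ± 3.95, beside 80.4% ± 9.16 in facial nucleus, while reads per cell with a read were 43.1 ± 7.75 and 29.0 ± 6.85. Shares were described over mice and not tested.

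Fcgr2b was read in 73.7% ± 7.60 of untreated corpus callosum cells and 77.2% ± 9.26 of demyelination cells, which overlap. Reads per cell with a read were 4.46 ± 1.74 and 9.84 ± 1.45. In demyelination its upper quartile over cells was 497 CPM, against 185 CPM untreated, while the medians were 162 and 105 CPM, so the upper part of the cells differed most.

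Fcgr3 was read in 96.2% ± 4.51 of untreated corpus callosum cells, 89.3% ± 2.69 of demyelination cells and 71.4% ± 13.2 of remyelination cells. The remyelination mice (51.7% to 80.6%) lay below all untreated ones (91.3% to 100%). Without thinning the share in remyelination was 85.8%. The lower numbers of detected genes in remyelination cells, given above, go the same way, and their part in these shares was not tested.

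Fcgr4, an activating receptor for some IgG subclasses, was found in few cells. Untreated regions had a read in 3.30% ± 2.84 (cerebellum) to 6.69% ± 3.81 (facial nucleus) of cells. The share was 16.7% ± 6.22 at day 3, with mice at 11.6% to 25.6% against 2.86% to 11.4% in facial nucleus, 11.3% ± 3.47 in demyelination and 9.25% ± 2.04 in remyelination. After thinning all 4 day 3 mice were above all 4 facial nucleus mice, at 11.6% against 11.4% at the closest. Without thinning the shares were 18.6% and 11% and the mice overlapped: facial nucleus replicate 2 had a read in 7 of 44 cells, and day 3 replicate 2 in 6 of 45. Single cells made up much of the level: of 3081 Fcgr4 counts in remyelination replicate 2, 1915 came from 1 of 33 cells. Over the group, the 5 highest cells held 83.7% of the summed CPM per cell in remyelination, 69.5% in demyelination and 39.8% at day 3. Cerebellum replicate 2 had 0 Fcgr4 counts, which for counting error alone allows up to 3.

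Negative wells show reads of the members without a cell, but they were not thinned and are not at the depth of these shares. In the 20 negative wells, Fcer1g had a read in 13 wells (28 counts in all), Fcgr3 in 10, Fcgr1 in 7, Fcgr2b in 3 and Fcgr4 in 0. No negative well held more than 10 counts of a member. The median negative well held 524.5 gene counts, against the 20000 or more of a kept cell.

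**Figure D5:**
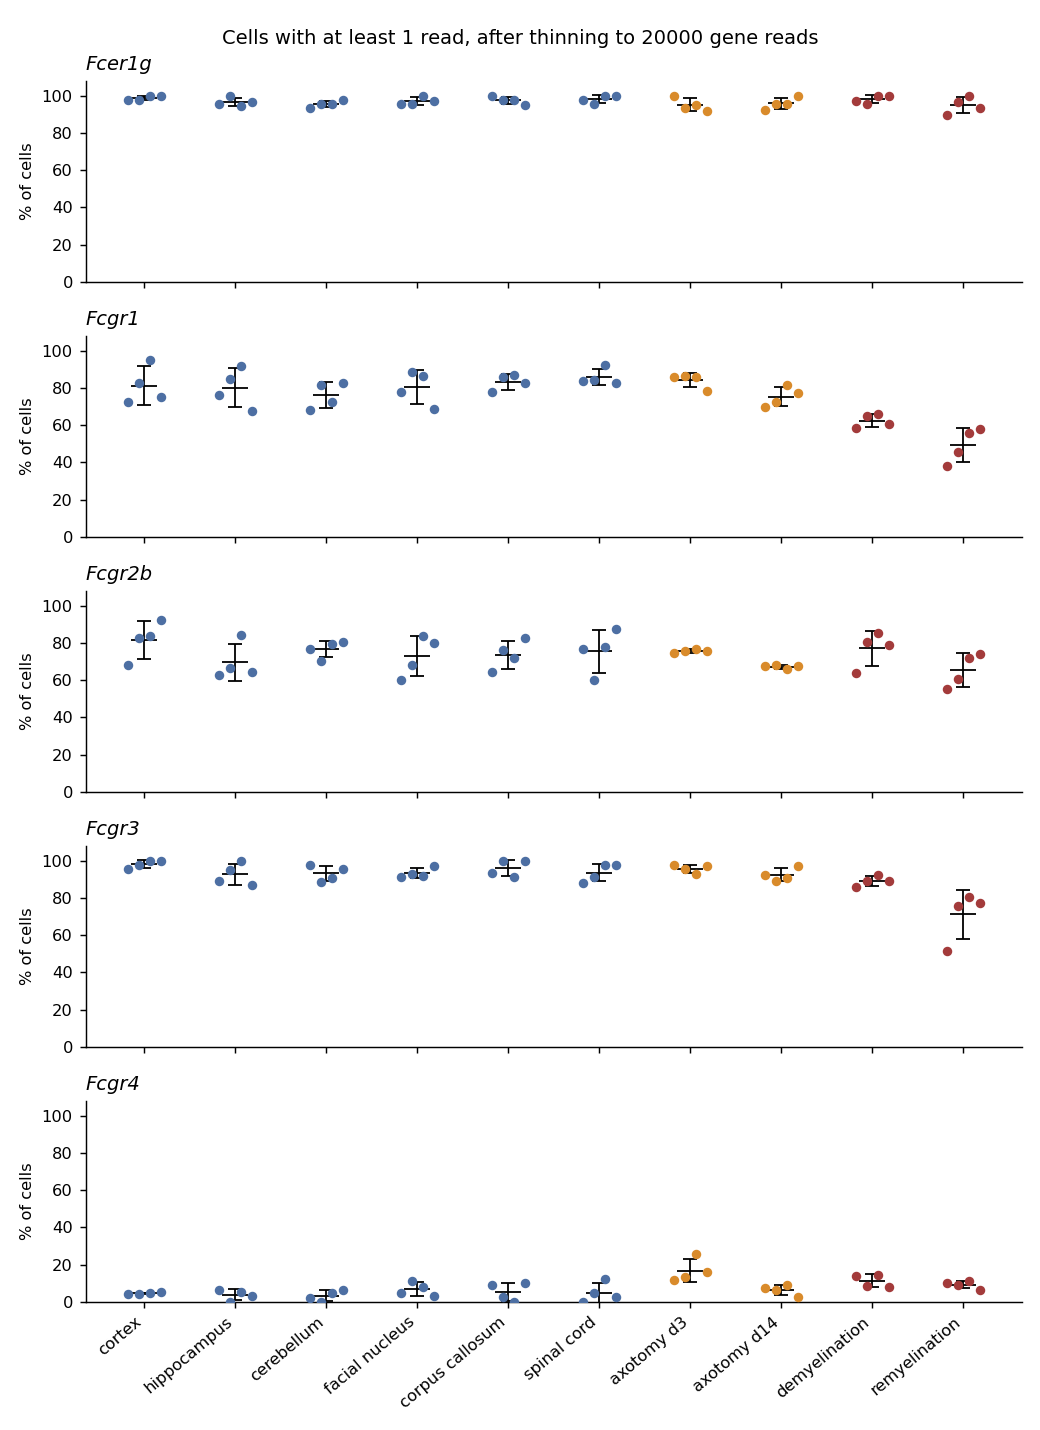
Points are the share of cells (%) of single mice with at least 1 read after thinning to 20000 gene reads, with the mean and SD over 4 mice in black. Fcer1g lies at 89.7% or more, Fcgr1 lies between 37.9% and 58.1% in remyelination, and Fcgr4 reaches at most 25.6%.

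Reads of several members were often found in 1 cell. At the thinned depth at least 1 IgG receptor was read in all but 4 of 173 untreated corpus callosum cells, 3 of 168 day 3 cells, 7 of 161 demyelination cells and 15 of 129 remyelination cells. Of cells with an activating IgG receptor, the γ chain was also read in 95.5% (cerebellum) to 98.9% (cortex) across the 10 groups, which is close to the share of all cells with Fcer1g in these groups (95.6% and 98.9%). The inhibitory receptor was read in 70.6% (day 14) to 82.2% (cortex) of them, beside 67.2% and 81.7% of all cells. Fcgr3 was read in 79 of 85 remyelination cells with Fcgr2b and in 31.8% of 44 cells without it, and in 127 of 127 and 84.8% of 46 cells in untreated corpus callosum. Fcgr2b and Fcgr3 share the coding run shown above, and cells also differ in quality, so the part of either in this pairing was not tested. Fcgr1 was read in 13 of 18 demyelination cells with Fcgr4 and 61.5% of 143 without it. At day 3 it was read in 24 of 28 with Fcgr4 (85.7%) and 84.3% of 140 without, which are nearly equal shares.

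Across the 40 sums, the levels of members followed each other unevenly. On the log2(CPM + 1) scale Pearson's r was 0.71 between Fcer1g and Fcgr2b, 0.69 between Fcgr2b and Fcgr3 and -0.22 between Fcer1g and Fcgr1. The 3 of 9353 genes (mean of 10 CPM or more) most like Fcer1g were Tyrobp (r = 0.94), Mif (r = 0.94) and Tmsb4x (r = 0.92). Tyrobp is the other ITAM adaptor of myeloid cells. For Fcgr1 they were Oasl2 (r = 0.58), Pld4 (r = 0.57) and Rtp4 (r = 0.57), of which Oasl2 and Rtp4 are interferon-induced genes. Those most like Fcgr2b were Gpr137b (r = 0.80), Grn (r = 0.80) and Clta (r = 0.79), and those most like Fcgr3 were Ergic3 (r = 0.71), Itm2c (r = 0.69) and Itgb2 (r = 0.68). For Fcgr4 they were Tcp1 (r = 0.62), Shisa5 (r = 0.59) and Chmp7 (r = 0.57). The sums share plates, mice and groups, so these correlations describe the 40 sums and carry no test.

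The partners of the receptors were taken as lists. Of the activating signalling genes (Src-family kinases, Syk, adaptors and downstream enzymes), 23 were tested in demyelination. Of these 1 was called higher and 0 lower, beside 3.08% and 2.08% of all genes. Their median log2 fold change was 0.04, beside -0.33 for all genes. The 1 gene was Tyrobp, at 8429 ± 648 CPM in demyelination, 5545 ± 1132 CPM in remyelination and 1469 ± 475 CPM untreated (log2 fold change 2.45 ± 0.19, adjusted p = 1.13e-06 by edgeR). Syk stood at 93.7 ± 82.9 CPM in demyelination and 132 ± 41.1 CPM untreated and did not pass (log2 fold change -0.58 ± 0.61, adjusted p = 0.685). In remyelination the same list again gave 1 higher gene, Tyrobp, and 0 lower of 23, beside 2.51% and 0.605% of all genes.

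Genes of the phagocytic cup and its actin were the next list. Of 17 tested in demyelination, 8 rose, 1 fell and 8 did not pass, with a median of 1.13 beside -0.33 for all genes, of which 3.08% were called higher and 2.08% lower. Those that rose by the most were the actin-severing Gsn (0.302 ± 0.471 to 101 ± 27.9 CPM), the actin-depolymerising Cfl1 (log2 fold change 1.99 ± 0.23) and the Arp2/3 subunits Arpc3 (1.91 ± 0.32), Arpc2 (1.77 ± 0.24), Arpc1b (1.68 ± 0.21) and Arpc5 (1.61 ± 0.30). Their adjusted p by edgeR ran from 4.74e-05 for Cfl1 to 0.00598 for Gsn. The 1 gene that fell was Elmo1, part of an exchange factor for Rac, at 596 ± 126 CPM untreated and 241 ± 83 CPM in demyelination (adjusted p = 0.021), named after its value was seen. In remyelination 9 of 17 rose, the same genes and Cdc42, and 1 fell, again Elmo1 (255 ± 68.8 CPM). Of all genes 2.51% were called higher and 0.605% lower there. At day 3 after axotomy 1 of 17 rose, beside 0.14% of all genes. This was the GTPase Rac2 (188 ± 41.9 to 516 ± 67.8 CPM, log2 fold change 1.48 ± 0.27, adjusted p = 0.026 by edgeR). From day 3 to day 14 Rac2 fell again, to 164 ± 37.9 CPM (adjusted p = 0.0445 by edgeR), where 0.0259% of all genes were called.

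Of the inhibitory signalling genes, 0 rose and 1 fell of 14 in demyelination, beside 3.08% and 2.08% of all genes. Their median log2 fold change was 0.02, beside -0.33 for all genes. The gene that fell was the adaptor Dok3, at 4.17 ± 3.97 CPM against 85.5 ± 27.0 CPM (adjusted p = 0.0242 by edgeR). Inpp5d, which encodes SHIP1, the phosphatase recruited by Fcgr2b, stood at 395 ± 83.9 CPM in demyelination and 666 ± 55.4 CPM untreated and did not pass (log2 fold change -0.83 ± 0.34, adjusted p = 0.165 by edgeR). The test of the difference between injuries, where 1.03% of all genes passed, called 1 of 23 activating and 1 of 14 inhibitory signalling genes. These were Tyrobp (2.08 ± 0.24, adjusted p = 3.37e-05 by edgeR) and Dok2 (adjusted p = 0.0492 by edgeR). Dok2 had a mean of 25.5 ± 23.8 CPM in demyelination and at most 0.803 ± 1.61 CPM in the other 3 groups. None of the 5 other Fc receptor genes or the 1 other receptor paired with Fcer1g that could be tested in demyelination was called by edgeR. Of all genes 3.08% were called higher and 2.08% lower there. At an unadjusted p under 0.05 the 2 lists held 1 and 0 genes, and the share of all genes at that p is not given here. The median of the other Fc receptor genes was -0.52, and the paired receptor was at -3.72. In the test among untreated regions, no gene of any of the 5 lists was called by edgeR, where 0.1% of all genes were. At an unadjusted p under 0.05, beside 10.3% of all genes, lay 3 of 10 other Fc receptors and 0 of 5 receptors paired with Fcer1g. The counts were 3 of 23 for activating signalling, 3 of 17 for phagocytic cup and actin and 3 of 14 for inhibitory signalling.

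Other cells that carry Fc receptors could contribute to the sums. The 8 monocyte markers summed to 578 to 2176 CPM per mouse in demyelination and 11.7 to 170.4 CPM in untreated corpus callosum, where Fn1 made up 1242 of a mean of 1253 CPM in demyelination, while Ly6c2, Chil3 and Hp were at 0 counts and Ccr2 at 7.95 CPM there. The 8 border macrophage markers summed to 13.6 to 131 CPM in demyelination (mean 50.2) and 6.17 to 27.7 CPM untreated (mean 13.2), which overlapped. Pf4 (24.5 CPM) and Ms4a7 (13.3 CPM) held most of the demyelination sum, with Lyve1 and F13a1 at 0 there. In remyelination the same list summed to 208 to 440.2 CPM, with Cd163 and Lyve1 at 0. Ms4a7 held most of that sum (219.6 CPM, against 0.429 CPM untreated), followed by Mrc1 (41.8 CPM) and Clec12a (25.3 CPM). Neutrophil markers summed to 443 to 603 CPM in demyelination and 544 to 819 CPM untreated, with Ly6g, Retnlg, Ngp and Cxcr2 at 0 in demyelination. S100a8 went the other way, from 0 untreated to 11.5 ± 11.2 CPM in demyelination. Of the 8 neutrophil markers, and of the 6 B cell markers given next, 1 each was read in at least 25% of cells in both groups. B cell markers summed to 350.3 to 466 and 389 to 911 CPM (Cd79a and Ms4a1 at 0 in demyelination), dendritic cell markers to 0 to 23.1 and 11.7 to 56.0 CPM, T and NK cell markers to 0.187 to 28.8 and 5.61 to 10.2 CPM, and mast cell and basophil markers to 0 to 0.373 and 0 to 7.46 CPM. Without the 27 cells that had at least 3 markers of 1 other list, the log2 fold change in demyelination was 1.75 for Fcer1g and 1.72 for Fcgr2b. Of these cells 1 was in demyelination and 7 in untreated corpus callosum. At day 3 after axotomy the monocyte markers summed to 50.2 to 216 CPM, against 25.8 to 237 CPM in facial nucleus. The part of these markers, and of the changed microglia markers, in the changes of the members was not tested.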

How the data were processed

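The authors deposited raw counts of reads, as whole numbers for each gene in each of 1920 wells. The submitters' processing notes name STAR 2.5.2b, featureCounts 1.5.1 and GRCm38, and the sources used here do not give the annotation release, strand setting or handling of reads shared between genes. The gene length used per kilobase is the deposited exon length. A well was kept with at least 20000 gene counts, 500 genes, under 25% mitochondrial and under 50% spike-in counts (1644 of 1900 cell wells, 0 of 20 negative wells). Kept counts were summed per mouse and group and tested in edgeR 4.0.16 (R 4.3.3; TMM, minimum count 10 and total 15, robust quasi-likelihood F test, Benjamini-Hochberg over all genes, 0.05): untreated regions in 1 fit of 24 sums, axotomy with facial nucleus, cuprizone with corpus callosum, and the difference of effects in 1 fit of 16 sums. The labels give 4 replicate numbers per group, called mice here, while the design text gives 3 or 4 mice for a condition, so p-values and SDs measure the spread between labelled replicates.

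Regions came from the same mice per the design text. Whether a replicate number is 1 mouse throughout is not stated in the labels, but each of the 24 untreated sums correlated best, on average, with the sums of its own number (correlations of deviations from the group mean from -0.00135 to 0.0805 in 60 same-number pairs), so blocked values stand beside regional results where they matter. No such pairing applies between injured and untreated mice.

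Named genes are the 5 members, the called genes of each list (up to the 6 with the largest change per comparison) and the 3 genes most like each member. Beyond that rule, Syk and Inpp5d are named for their role and Elmo1 as a single gene that fell, chosen after values were seen. Single markers of the cell type lists are also named, chosen after values were seen. Members and lists were chosen with earlier results of these data known. Alternatives were DESeq2 1.42.0, other scaling, filters, weights and fits, and leaving out each replicate. The edgeR script was tested on simulated data. Promoter sequences are RefSeq's. All 5 members passed the filter on low counts in every fit. Intervals were not computed, and limits for 0 counts cover counting error only. How many of all genes have groups of mice that do not overlap was not counted, so non-overlap describes the mice only.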

Additional observations from a re-analysis of the deposited data

Results flagged for a closer look

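The effect on Fcer1g was larger in demyelination than at day 3 after axotomy, by 1.48 on the log2 scale, and that on Fcgr1 differed by -1.31; both passed a test of the difference itself (edgeR, adjusted p = 0.0028 and 0.0383). The call of Fcer1g held in 16 of 16 leave-one-out fits. That of Fcgr1 was lost in 12 of 16 and in 1 fit of all 10 groups (adjusted p = 0.0769 by edgeR). Over all alternatives its adjusted p ran from 0.00189 to 0.0899. Its value lies near the median of all genes in the fit of the difference, -0.94. The medians in the separate fits were -0.33 in demyelination and 0.04 at day 3. Fcer1g was higher in 4 of 4 demyelination mice than in all 4 untreated corpus callosum mice, and Fcgr1 higher in 4 of 4 day 3 mice than in all 4 facial nucleus mice. That comparison of Fcgr1 did not pass (adjusted p = 0.386 by edgeR). Such non-overlap was not counted over all genes and describes the mice only. One mouse stood apart in its group: Fcgr4 at day 14 after axotomy was at 67.1 CPM in replicate 3 and at 15.7 to 21.2 CPM in the others, where 571 of its 621 counts came from 1 cell. This was 1 of 50 sets of 4 mice examined, and chance marks about 1 in 20.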

How the results depend on the processing

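The calls of Fcer1g in both cuprizone stages and in the difference between injuries held under every alternative run. The number of members called among regions was 1 in place of 0 with DESeq2 and with equal weight for each cell. Without a filter on low counts it was 1 in place of 0 at day 3 against facial nucleus and at day 14 against day 3. In remyelination it was 2 in place of 1 with DESeq2 and in 1 fit of all 10 groups, and 1 to 2 when a replicate was left out. Leaving out a replicate gave 1 to 2 members in demyelination and 1 to 2 in the difference between injuries, which was 1 in 1 fit of all 10 groups. The paired fit with a replicate block gave the same number of members in every comparison (2 in demyelination, 1 in remyelination, 0 among regions); outside the regions, equal numbers are not known to be equal mice, and same-number correlations there were at most 0.024. Upper-quartile scaling and DESeq2 moved the median of all genes in demyelination from -0.33 to -0.53 and -0.59, and the members with it. DESeq2 called more genes, 1945 in place of 725 in demyelination and 204 in place of 23 among regions. Of the 50 levels, 14 moved by over 1 SD in unscaled CPM and 11 as the mean over cells, and of the 50 shares 21 moved without thinning and 0 without cells of other types.

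Directions turned only for differences that passed no test, given as log2 fold changes. With no filter on cells these were Fcer1g, cortex against hippocampus, 0.013 and Fcgr4, axotomy day 14 against facial nucleus, -0.0063 and Fcer1g, remyelination against demyelination, 0.047. With equal weight for each cell these were Fcer1g, cortex against hippocampus, 0.081 and Fcgr2b, spinal cord against corpus callosum, 0.028 and Fcgr1, axotomy day 14 against facial nucleus, -0.15 and Fcgr4, axotomy day 14 against facial nucleus, -0.14. With no filter on low counts these were Fcgr1, axotomy day 14 against facial nucleus, -0.0020. With the replicate block these were Fcgr1, axotomy day 14 against facial nucleus, -0.044 and Fcgr4, axotomy day 14 against facial nucleus, -0.19. With DESeq2 these were Fcer1g, axotomy day 14 against axotomy day 3, 0.0064 and Fcgr3, remyelination against corpus callosum, -0.12 and Fcer1g, remyelination against demyelination, 0.048. With upper-quartile scaling these were Fcgr3, remyelination against corpus callosum, -0.10 and Fcer1g, remyelination against demyelination, 0.0051. When single replicates were left out, the ranges that cross 0 were Fcer1g, cortex against hippocampus, -0.090 to 0.028, Fcgr4, cortex against hippocampus, -0.12 to 1.94, Fcgr1, cortex against hippocampus, -0.022 to 0.41, Fcgr2b, cerebellum against facial nucleus, -0.22 to 0.59, Fcer1g, spinal cord against corpus callosum, -0.025 to 0.20, Fcgr1, spinal cord against corpus callosum, -0.12 to 0.23, Fcgr2b, spinal cord against corpus callosum, -0.55 to 0.27, Fcgr4, spinal cord against corpus callosum, -0.98 to 0.85, Fcgr1, axotomy day 14 against facial nucleus, -0.32 to 0.18, Fcgr4, axotomy day 14 against facial nucleus, -0.69 to 0.46, Fcgr2b, axotomy day 14 against facial nucleus, -0.53 to 0.011, Fcer1g, axotomy day 14 against axotomy day 3, -0.12 to 0.056, Fcgr3, remyelination against corpus callosum, -0.047 to 0.20, Fcer1g, remyelination against demyelination, -0.17 to 0.065, Fcgr4, remyelination against demyelination, -0.29 to 1.21, Fcgr1, remyelination against demyelination, -0.049 to 0.28. The cause was not tested. At 100000 gene reads in place of 20000, 18 shares moved, so shares of cells with a read hold for their depth only.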
